A study of Mus musculus with 4 samples.

Results

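The Hox genes of the 4 mammalian clusters were followed across 4 cell populations of the mouse aorta-gonad-mesonephros (AGM) region. All protein-coding genes named as a HoxA, HoxB, HoxC or HoxD gene with a paralog number were taken, which gave 38 of the 51205 genes measured and of the 20776 protein-coding genes among them. They were 11 HoxA, 10 HoxB, 9 HoxC and 8 HoxD genes. The annotation holds 39 such genes, and the 1 other gene was not analysed here. The AGM is the embryonic region around the dorsal aorta where hematopoietic stem cells form. Bulk RNA-seq was made from cells sorted at E11 (embryonic day 11), with 1 library per population. Every population was NG2-, PDGFRB- and CD31+, so cells with those 2 pericyte markers were removed and an endothelial surface marker was required. Cells of the intra-aortic hematopoietic clusters (IAHCs) were sorted as ckit+, with no gate on CD45, and split by the reporter into Runx1+ IAHCs (Runx1(GFP)+) and Runx1- IAHCs (Runx1(GFP)-). The ckit-CD45- cells were split the same way into hemogenic endothelial cells (HECs; Runx1(GFP)+), the endothelial cells that give rise to blood, and endothelial cells (ECs; Runx1(GFP)-). All came from pooled Runx1-GFP embryos, in which GFP reports transcription of Runx1. The labels call the genotype WT, whereas the study describes both heterozygous and homozygous reporter embryos, so the number of reporter copies in a library is uncertain. By the study's cell counts, Runx1- IAHCs were the rarest sorted population and ECs the most common.

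Hox genes encode homeodomain transcription factors that give cells their position along the head-to-tail axis. The genes of a cluster lie in a row in the order of their paralog numbers, and genes of low number are used further forward in the embryo than genes of high number. Genes with the same number in different clusters are paralogs that arose by duplication of an ancestral cluster. In blood formation HoxA genes, Hoxa9 above all, are known from the self-renewal and expansion of hematopoietic stem and progenitor cells, and several Hox proteins take part in the growth and patterning of vessels. Here paralogs 1 to 3 are called anterior, 4 to 8 central and 9 to 13 posterior.

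Levels are deposited TPM, a unit in which reads are divided by gene length and put on a common total per library. No deposited value was 0, and whole reads could be recovered from the values of all 38 Hox genes, with 1 read seemingly added to every gene. A gene without a read is therefore called so, although its deposited value was between 0.0159 and 0.136 TPM. The 95% intervals of levels are Poisson and those of folds Clopper-Pearson, and both hold counting error alone. Since each population has a single library, differences have no replicate check, no SD and no test. A gene was counted as higher or lower when log2(TPM + 1) differed by 2 or more (4-fold) between 2 libraries, and was compared when it reached 1 TPM in the higher library. A gene that reaches 1 TPM in a single library enters through the library where it is high, so this minimum partly sets the direction among the genes compared. Folds were computed from the recovered reads. Where the lower library had no read, 3 reads were put in its place as a floor and the fold is a lower bound for counting error alone. RNA lost before sequencing, which can remove a low gene from few sorted cells, is not in that bound. Fewer cells that express a gene and less RNA per cell cannot be told apart in such libraries.

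Recovered reads came to 14384774 in Runx1+ IAHCs, 15917924 in Runx1- IAHCs, 15310845 in HECs and 12420598 in ECs. Endothelial markers summed to 132 TPM in Runx1+ IAHCs, 2329 TPM in Runx1- IAHCs, then 299 TPM in HECs and 2284 TPM in ECs. Hematopoietic markers summed to 2208, 105, 2744 and 119 TPM in the same order. Megakaryocyte markers summed to 113, 46.5, 51599 and 409 TPM in this order, and all 5 reached 1 TPM in HECs. Germ cell markers summed to 2.94, 6784, 13.7 and 669 TPM, and all 8 reached 1 TPM in Runx1- IAHCs. Erythroid markers summed to 148, 176, 12376 and 8497 TPM, of which the hemoglobin gene Hba-a1 alone made up 11959 TPM in HECs and 8472 TPM in ECs. Macrophage markers were at or under 24.8 TPM in sum in each library. The names of the populations are kept here, although megakaryocyte markers exceeded endothelial markers in the HEC library, and germ cell markers exceeded both endothelial and hematopoietic markers in the Runx1- IAHC library.

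Hox RNA was most abundant in ECs and least abundant in HECs. Summed over the 38 genes it came to 42.4 ± 2.31 TPM in Runx1+ IAHCs, 120 ± 4.49 TPM in Runx1- IAHCs, then 9.59 ± 1.10 TPM in HECs and 205 ± 6.51 TPM in ECs (95% counting error). These sums rested on 1454, 3117, 230 and 4238 reads. The 4 sums lay further apart than their counting error, in the order EC, Runx1- IAHC, Runx1+ IAHC and HEC from high to low. In Runx1+ IAHCs 7 of the 38 genes reached 1 TPM, in Runx1- IAHCs 19, in HECs 1 and in ECs 24. Of all protein-coding genes 47.4% reached 1 TPM in Runx1+ IAHCs, 49.4% in Runx1- IAHCs, 46.3% in HECs and 51.6% in ECs. The share of Hox genes was thus near the background in Runx1- IAHCs, above it in ECs and under it in the Runx1+ IAHC and HEC libraries. No read was found for 14 Hox genes in Runx1+ IAHCs, 12 in Runx1- IAHCs, 15 in HECs and 4 in ECs. ECs were also by far the most common sorted population, and the part of cell number in these counts was not tested.

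**Figure D1:**
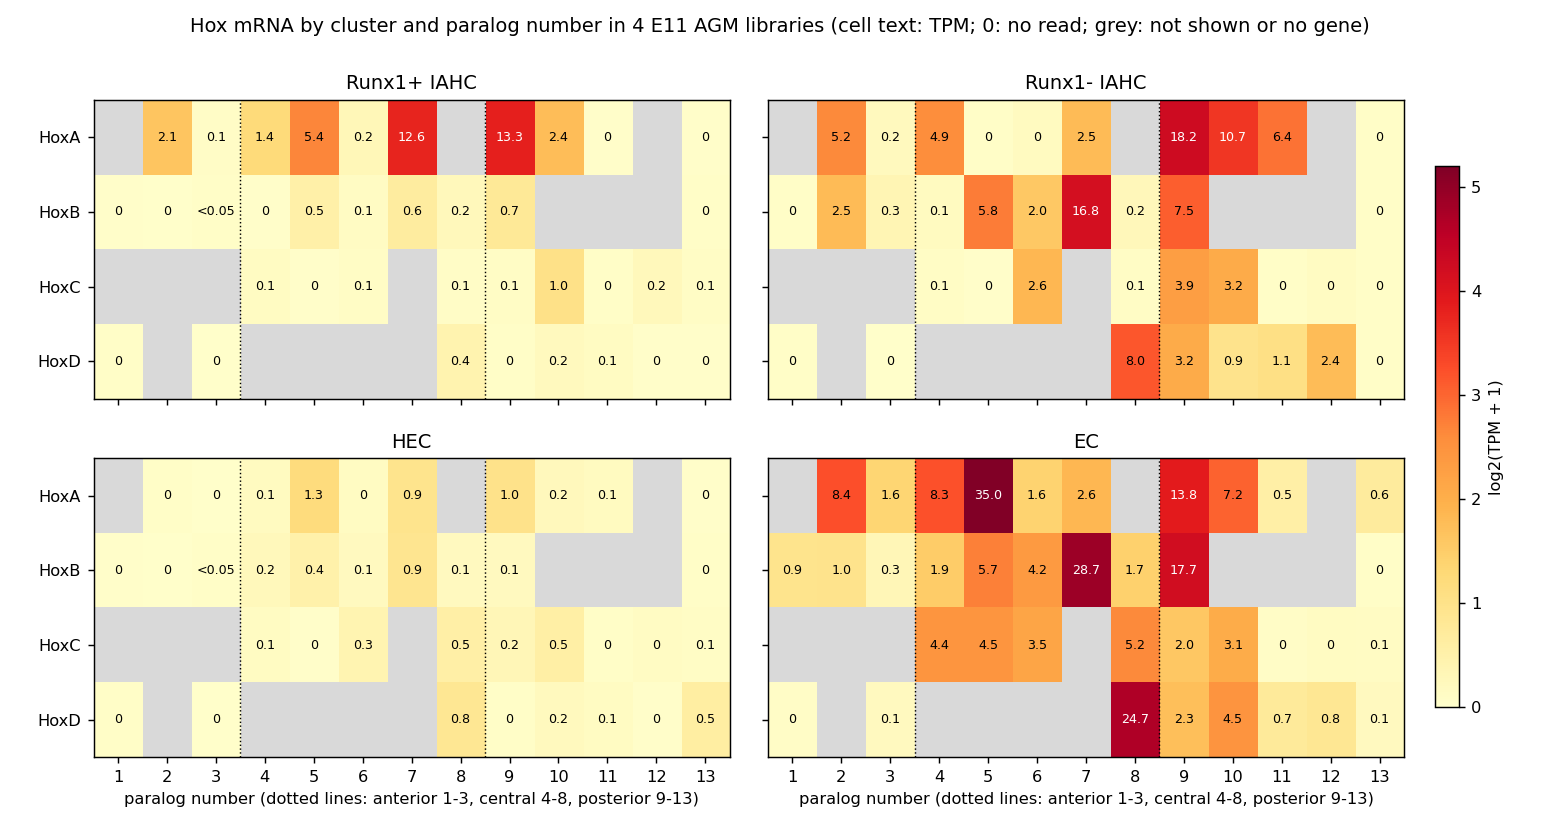
Level of each Hox gene by cluster (rows) and paralog number (columns) in the 4 libraries, coloured by log2(TPM + 1) with the TPM in each cell; 0 marks a gene without a read and grey a place with no gene or with a gene not shown. In the Runx1+ IAHC library colour is nearly confined to the HoxA row, led by Hoxa9 (13.3 TPM) and Hoxa7 (12.6 TPM), the HEC map is pale throughout, and the EC map is filled from paralog 2 to paralog 10.

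The clusters took unequal parts of these sums. HoxA genes made up 88.7% of Hox TPM in Runx1+ IAHCs, 48.9% in Runx1- IAHCs, 40.3% in HECs and 42.4% in ECs. The HoxA sum was 37.6 TPM in Runx1+ IAHCs, 58.5 TPM in Runx1- IAHCs, then 3.87 TPM in HECs and 86.8 TPM in ECs. HoxB genes summed to 2.24, 35.2, 2.06 and 61.9 TPM in the same order, HoxC genes to 1.73, 10.1, 1.89 and 22.9 TPM, and HoxD genes to 0.837, 15.8, 1.77 and 33.3 TPM. Outside HoxA the sums of the Runx1+ IAHC library were thus close to those of the HEC library or under them. By position, anterior genes summed to 2.40 TPM in Runx1+ IAHCs, 18.5 TPM in Runx1- IAHCs, then 0.300 TPM in HECs and 19.6 TPM in ECs. Central genes summed to 21.6, 43.3, 5.93 and 132 TPM in the same order, and posterior genes to 18.4, 57.9, 3.36 and 53.6 TPM. Posterior genes had the largest sum in Runx1- IAHCs, whereas central genes had the largest sum in the other 3 libraries. The anterior, central and posterior classes hold 8, 14 and 16 genes. Hoxa9 alone made up 18.2 TPM of the posterior sum in Runx1- IAHCs, and without it the posterior sum would fall under the central sum. Hoxb7 in turn made up 16.8 TPM of that central sum. The paralogs of number 13, which are used at the tail end of the axis, stayed at or under 0.917 TPM in sum in each library.

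**Figure D2:**
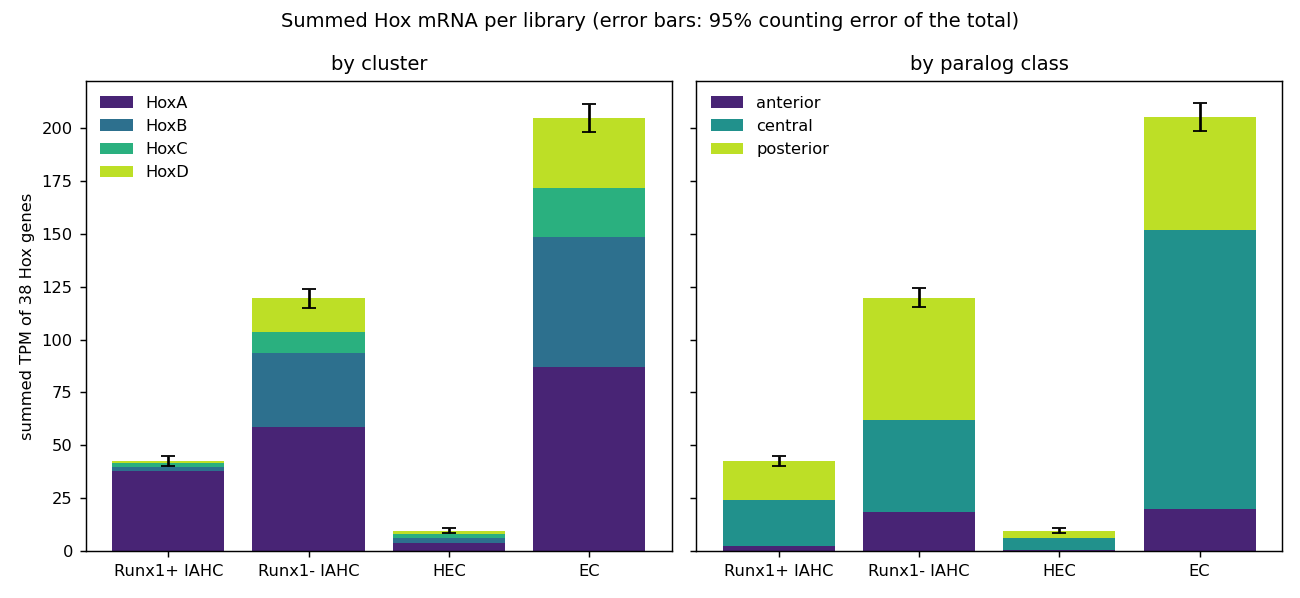
Summed TPM of the 38 Hox genes per library, stacked by cluster (left) and by paralog class (right), with the 95% counting error of the total. The sums were 42.4, 120, 9.59 and 205 TPM from left to right, HoxA filled most of the Runx1+ IAHC bar, and posterior genes filled the largest part of the Runx1- IAHC bar.

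Few genes carried each sum. Hoxa9 was the highest Hox gene in both IAHC libraries, and Hoxa5, a central HoxA gene known from lung and vascular development, was the highest in HECs and ECs. Hoxa9 (ENSMUSG00000038227, GRCm38 chromosome 6, 52223100 to 52231089, minus strand) was at 13.3 TPM (12.4 to 14.3) in Runx1+ IAHCs, 18.2 TPM (17.1 to 19.4) in Runx1- IAHCs, then 0.978 TPM (0.743 to 1.26) in HECs and 13.8 TPM (12.7 to 14.9) in ECs. It was thus low in HECs alone, and the Runx1+ IAHC and EC intervals overlapped. Hoxa5 (ENSMUSG00000038253, chromosome 6, 52201754 to 52204587, minus strand) was at 5.39 TPM (4.40 to 6.53) in Runx1+ IAHCs, without a read in Runx1- IAHCs, at 1.27 TPM (0.835 to 1.87) in HECs and at 35.0 TPM (32.2 to 38.1) in ECs. Among 12 Hox genes described here that reached 5 TPM in some library, it was the only one that had reads in the other 3 libraries and none in Runx1- IAHCs. Hoxa7 (ENSMUSG00000038236, chromosome 6, 52214491 to 52221854, minus strand) was at 12.6 TPM (11.4 to 14.0) in Runx1+ IAHCs, 2.47 TPM (1.92 to 3.14) in Runx1- IAHCs, then 0.932 TPM (0.626 to 1.34) in HECs and 2.64 TPM (2.04 to 3.37) in ECs. Of these 12 genes only Hoxa7 was highest in Runx1+ IAHCs.

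The leading HoxB and HoxD genes had another order. Hoxb7, the highest HoxB gene, was at 0.572 TPM (0.283 to 1.07) in Runx1+ IAHCs, 16.8 TPM (14.7 to 19) in Runx1- IAHCs, then 0.868 TPM (0.491 to 1.44) in HECs and 28.7 TPM (25.8 to 31.7) in ECs. Hoxd8, the highest HoxD gene, was at 0.358 TPM (0.183 to 0.647), 7.98 TPM (6.92 to 9.15), 0.802 TPM (0.516 to 1.20) and 24.7 TPM (22.7 to 26.8) in the same order. Both were high in the Runx1- IAHC and EC libraries, and their Runx1+ IAHC and HEC intervals overlapped. By the ratio of reads, Hoxb7 was 1.58-fold lower in Runx1+ IAHCs than in HECs (0.609 to 4.41) and Hoxd8 2.38-fold lower (1.05 to 5.88). Hoxc8, a thoracic patterning gene and the highest HoxC gene, was at 0.0694 TPM (0.0356 to 0.228) in Runx1+ IAHCs, 0.0761 TPM (0.0390 to 0.250) in Runx1- IAHCs, then 0.473 TPM (0.268 to 0.785) in HECs and 5.15 TPM (4.29 to 6.14) in ECs. It had only 1 read in each IAHC library. Hoxa11, a posterior gene known from limb and kidney development, had no read in Runx1+ IAHCs and was at 6.36 TPM (5.34 to 7.53) in Runx1- IAHCs, its highest library, at 0.126 TPM (0.0520 to 0.344) in HECs and at 0.467 TPM (0.231 to 0.870) in ECs. Of its exonic length 35.0% lies in the antisense gene Hoxa11os, and union counting dropped reads on that shared part.

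**Figure D3:**
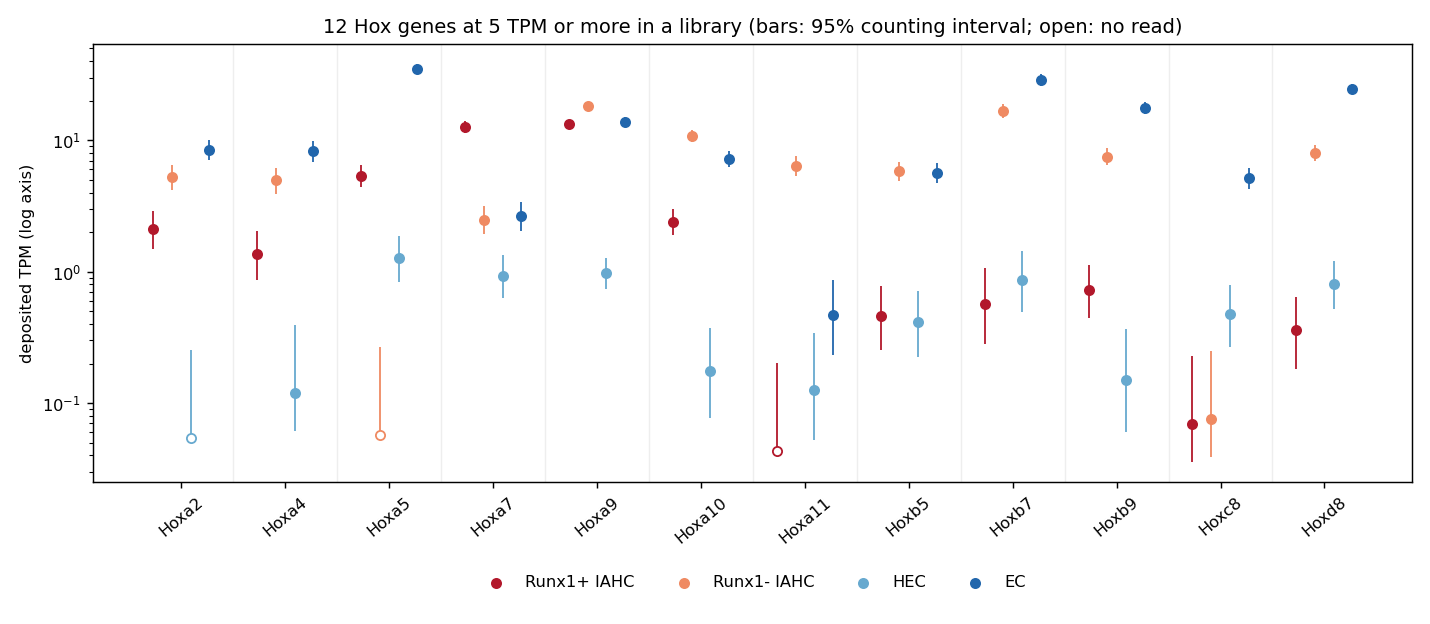
Deposited TPM (log axis) of 12 Hox genes that reached 5 TPM in a library, with 95% counting intervals; open points had no read. Hoxa7 is the only gene with its highest point in Runx1+ IAHCs, Hoxa5 has no read in Runx1- IAHCs, and the HEC points lie under the EC points for all 12 genes.

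Promoter sequences are shown for 4 of these genes as examples of different orders over the libraries: Hoxa9 (low in HECs alone), Hoxa5 (no read in Runx1- IAHCs), Hoxa7 (highest in Runx1+ IAHCs) and Hoxd8 (high in Runx1- IAHCs and ECs). The sequences are those of RefSeq for GRCm38.p6, which held 23 promoters of 21 of the 38 genes, and each is the 250 bases before the start site. Capitals mark the hexamer TTTATG, which CDX factors bind, and the hexamer AGGTCA, which retinoic acid receptors bind. Both were searched on both strands, as was the RUNX hexamer TGTGGT.
Hoxa9 promoter (chr6:52227371-52227620, minus strand): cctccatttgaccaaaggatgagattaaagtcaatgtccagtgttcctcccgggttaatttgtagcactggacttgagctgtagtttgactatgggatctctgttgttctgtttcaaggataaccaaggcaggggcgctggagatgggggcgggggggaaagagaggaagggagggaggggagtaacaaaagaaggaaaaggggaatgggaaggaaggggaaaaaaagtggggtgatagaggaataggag
Hoxa5 promoter (chr6:52204588-52204837, minus strand): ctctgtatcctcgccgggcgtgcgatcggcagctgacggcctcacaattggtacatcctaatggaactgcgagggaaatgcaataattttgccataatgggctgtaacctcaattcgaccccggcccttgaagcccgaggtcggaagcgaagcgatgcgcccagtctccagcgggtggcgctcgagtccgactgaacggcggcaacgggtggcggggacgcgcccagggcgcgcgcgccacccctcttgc
Hoxa5, stretch after its start (chr6:52204538-52204559, minus strand): agtttacctctagAGGTCAtca
Hoxa7 promoter (chr6:52218574-52218823, minus strand): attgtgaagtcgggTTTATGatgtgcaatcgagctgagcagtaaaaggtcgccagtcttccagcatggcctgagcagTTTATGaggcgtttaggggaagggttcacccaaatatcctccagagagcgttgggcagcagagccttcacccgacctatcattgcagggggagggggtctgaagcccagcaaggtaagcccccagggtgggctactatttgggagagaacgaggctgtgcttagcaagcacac
Hoxd8 promoter (chr2:74704365-74704614, plus strand): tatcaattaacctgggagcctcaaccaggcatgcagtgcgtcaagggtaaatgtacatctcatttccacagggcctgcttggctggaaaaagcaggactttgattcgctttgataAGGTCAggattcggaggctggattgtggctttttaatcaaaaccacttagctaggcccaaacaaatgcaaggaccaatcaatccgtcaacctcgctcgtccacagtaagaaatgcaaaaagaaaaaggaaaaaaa

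Hoxa7 held 2 CDX hexamers, which begin 236 and 173 bases before the start. Hoxd8 held the retinoic acid receptor hexamer 135 bases before the start, and Hoxa5 held it 41 bases after the start. None of the 3 hexamers was in the Hoxa9 window of 250 bases before and 50 bases after the start. Among the 23 Hox promoters, 1 (4.35%) held the RUNX hexamer, against 16.8% of all 32851 promoters. The CDX hexamer was in 4 Hox promoters (17.4%), against 11.9% of all, and the retinoic acid receptor hexamer in 6 (26.1%), against 16.3% of all. The only promoter with the RUNX hexamer was that of Hoxd10, which also held the retinoic acid receptor hexamer. In Hoxd3 the CDX hexamer and the reverse of the retinoic acid receptor hexamer share bases.

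The comparison of HECs with ECs asks how the ckit-CD45- cells with and without the Runx1 reporter differed, although megakaryocyte and hematopoietic markers exceeded endothelial markers in the HEC library. Of 24 genes compared, 15 were at least 4-fold lower and 0 higher, whereas of 11483 protein-coding genes 8.99% were lower and 5.72% higher. The median Hox difference was -2.24 on the log2(TPM + 1) scale, against -0.20 over all genes. All 24 differences lay between -4.02 and -0.91, but all of these genes except Hoxa5 reached 1 TPM in ECs alone and so entered through the library where they were high. Over all 38 genes without a minimum the median was -1.31, against -0.03 over all protein-coding genes. The 15 genes were 6 HoxA, 4 HoxB, 3 HoxC and 2 HoxD genes, or 2 anterior, 9 central and 4 posterior genes, so the lower level ran over all clusters and classes.

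Hoxa5 was 28.6-fold lower in HECs (19 to 45.0), Hoxb7 35.5-fold (20.5 to 67.2) and Hoxd8 32.1-fold (21 to 51.6). Hoxb9, a posterior gene of the thoracic region, had 0.149 TPM in HECs, from 3 reads, against 17.7 TPM in ECs, 158-fold lower (53.6 to 769). Hoxa9 was 14.3-fold lower (10.9 to 19.1) and Hoxa10, its posterior neighbour, 48.8-fold lower (20.6 to 152), with 0.176 TPM in HECs against 7.18 TPM in ECs. Hoxa2, an anterior gene that patterns the hindbrain, had no read in HECs against 8.42 TPM in ECs, at least 51.6-fold lower. Hoxa4 had 0.120 TPM in HECs, from 1 read, against 8.26 TPM in ECs, 136-fold lower (24.0 to 5433). Hoxb5 was 14.9-fold lower (8.05 to 30.5), with 0.412 TPM in HECs against 5.66 TPM in ECs, and Hoxc8 11.6-fold lower (6.55 to 22.5). Hoxa7 was the member least apart, 2.89-fold lower in HECs (1.82 to 4.72). In HECs 6 of the 24 genes at 1 TPM or more in ECs had no read, against 4.72% of all such genes. Far fewer HECs than ECs were sorted, and RNA lost before sequencing is not in these bounds. Hoxd13, the last gene of its cluster, had 13 reads in HECs and 2 in ECs, at 0.540 and 0.143 TPM, and was under the level compared.

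Values of other genes also differed between these 2 libraries. Endothelial markers were also lower in HECs, 8 of 11 at least 4-fold (median -2.99), and megakaryocyte markers were higher, 5 of 5 (median 6.76). Mesenchyme and mural markers summed to 58.4 TPM in HECs, with 2 of 13 genes at 1 TPM or more and no read for Lum, Dcn and Postn, and to 47.9 TPM in ECs, with 11 of 13 genes. Mesonephros and gonad markers summed to 2.55 TPM in HECs, with 0 of 7 genes at 1 TPM or more and no read for Lhx1, and to 7.04 TPM in ECs, with 3 of 7 genes. Skeletal muscle markers summed to 0.417 TPM in HECs and 5.06 TPM in ECs, sclerotome markers to 0.445 and 8.96 TPM, and sympathetic and neural markers to 1.99 and 9.90 TPM. Germ cell markers summed to 13.7 TPM in HECs, with 2 of 8 genes at 1 TPM or more and no read for Pou5f1 and Prdm1, and to 669 TPM in ECs, with 8 of 8 genes. The part of these cells in the Hox difference was not tested.

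**Figure D4:**
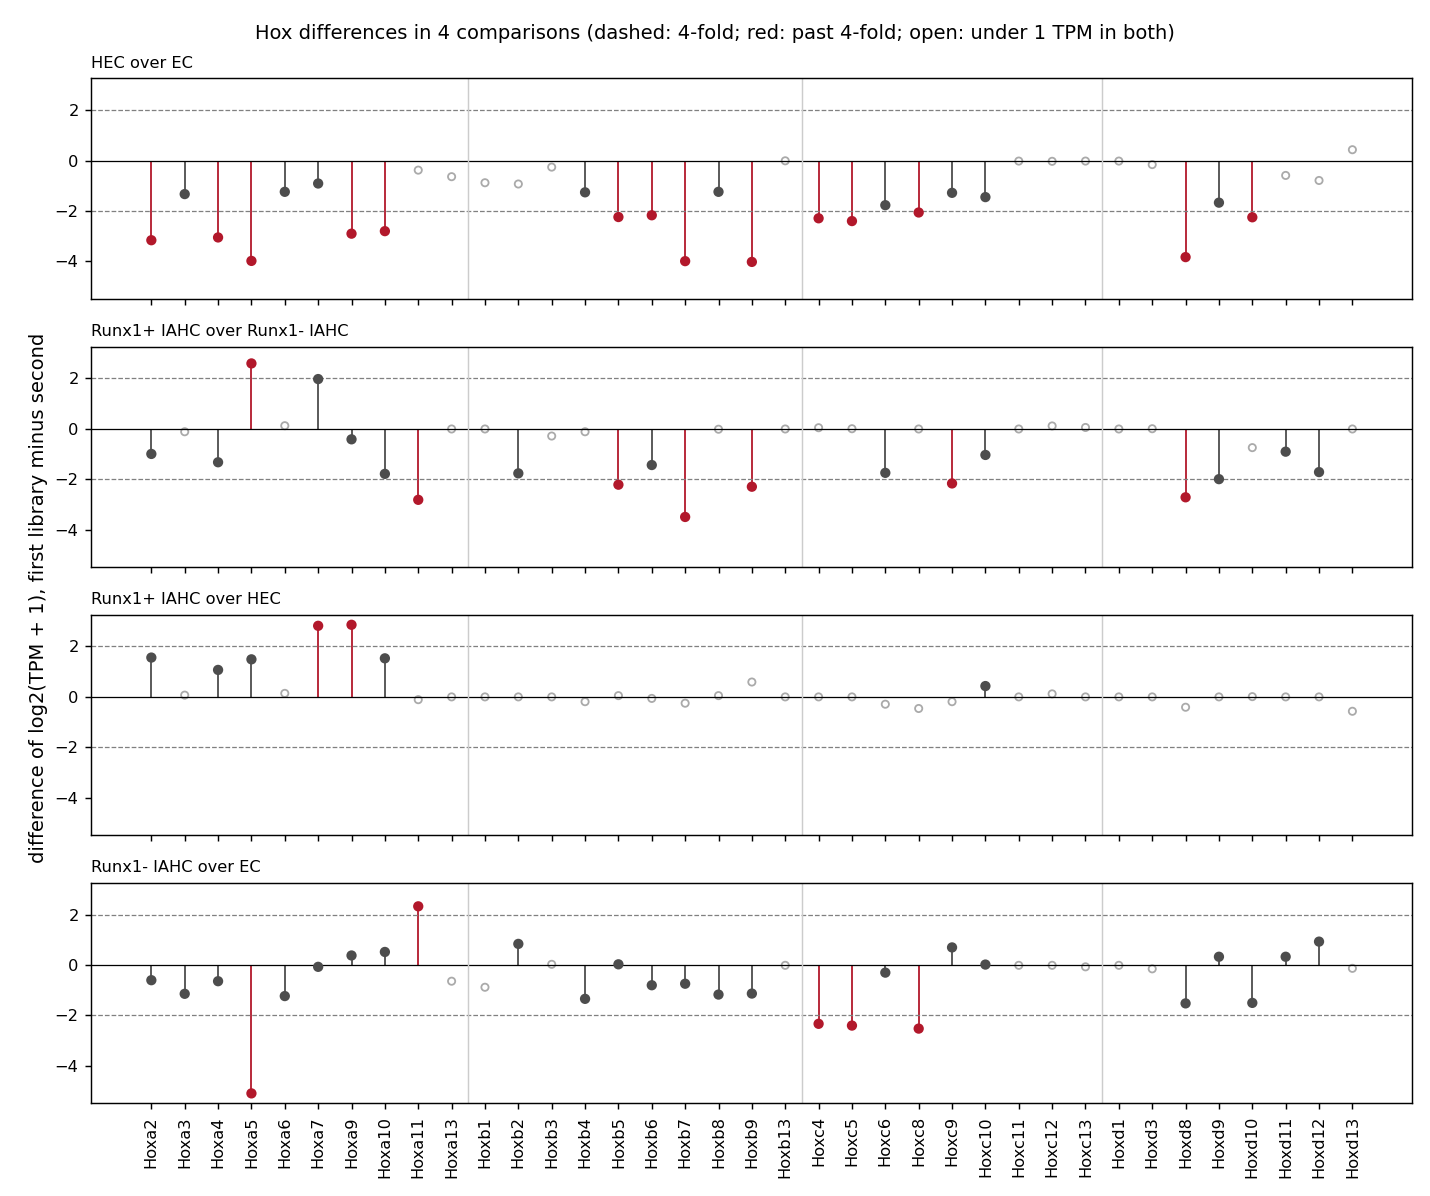
Difference of log2(TPM + 1) for 37 Hox genes in the 4 comparisons, first library minus second, with dashed lines at 4-fold, red points past them and open points for genes under 1 TPM in both libraries. All points compared lie under 0 for HEC over EC, Hoxa5 is the only red point above 0 for Runx1+ over Runx1- IAHC, and the points of Runx1- IAHC over EC lie on both sides of 0.

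Within the IAHCs, Runx1+ cells had less RNA of each Hox cluster in sum than Runx1- cells, while Hoxa5 and Hoxa7 were higher. In Runx1+ cells 7 of the 20 Hox genes compared were lower by 4-fold or more, and 1 was higher. Over all 11503 genes 14.9% were lower and 5.83% higher. The median was -1.76, against -0.52 over all genes. Under a scaling by median ratios 6 were lower and 2 higher, since Hoxa7 passed 4-fold there. Among the lower genes were Hoxa11, Hoxb5, Hoxb7, Hoxb9, Hoxc9 and Hoxd8, and higher was Hoxa5. Hoxb7 was 32.8-fold lower in Runx1+ IAHCs (16.4 to 76.9), Hoxd8 24.6-fold (12.7 to 54.7), Hoxb5 13.6-fold (7.58 to 27.0) with 0.458 TPM in Runx1+ against 5.81 TPM in Runx1- cells, and Hoxb9 10.9-fold (6.68 to 18.7) with 0.725 and 7.50 TPM. Hoxa11 was at least 49.0-fold lower.

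HoxA was lower in Runx1+ cells as well, with 37.6 against 58.5 TPM in sum and a median of -1.17 over 8 genes compared. It held the only 2 genes compared that were higher in Runx1+ cells. In Runx1+ IAHCs Hoxa5 was at least 31.0-fold higher, and Hoxa7, 2 genes along the same cluster, was 5.17-fold higher (3.96 to 6.84), with a difference of 1.97 that stayed just under the 4-fold rule on the log2(TPM + 1) scale. Hoxa9 was 1.37-fold lower (1.24 to 1.51), a small difference beside those of HoxB. Hoxa10 was 4.52-fold lower (3.52 to 5.85), with 2.40 TPM in Runx1+ against 10.7 TPM in Runx1- cells, and Hoxa2 2.52-fold lower (1.70 to 3.82), with 2.10 and 5.22 TPM. Hoxa4 was 3.76-fold lower (2.29 to 6.45), with 1.36 and 4.94 TPM. Along HoxA, Runx1+ IAHCs were thus higher for Hoxa5 and Hoxa7 and lower for the named genes on either side of them. In Runx1+ IAHCs 5 of the 19 genes at 1 TPM or more in Runx1- IAHCs had no read, against 5.24% of all such genes. Germ cell markers moved with the comparison: 8 of 8 were lower by 4-fold or more in Runx1+ cells (median -7.33), where Dppa5a, Rhox6, Utf1 and Dppa3 had no read. Endothelial markers were lower for 10 of 11 genes (median -3.38) and hematopoietic markers higher for 8 of 10 (median 3.91). Sympathetic and neural markers summed to 0.346 TPM in Runx1+ IAHCs, with 0 of 6 genes at 1 TPM or more and no read for Th, and to 27.3 TPM in Runx1- IAHCs, with 3 of 6 genes and no read for Hand2. Sox2 alone made up 19.4 TPM of the sum in Runx1- IAHCs. The part of cells with germ cell, endothelial or neural markers in the Hox difference was not tested.

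Between the populations with the Runx1 reporter, Runx1+ IAHCs had more HoxA RNA than HECs. Only 7 Hox genes reached 1 TPM in either library, and all of them but Hoxa5 did so in Runx1+ IAHCs alone, so that their direction was largely set by the minimum level. Their median was 1.53, against 0.13 over all genes, and over all 38 genes without a minimum it was 0.00. At least 4-fold higher were 2 genes, Hoxa7 and Hoxa9, and 0 were lower, whereas 2.85% of 10624 genes were higher and 4.62% lower. Hoxa7 was 14.0-fold higher (9.48 to 21.6) and Hoxa9 13.9-fold (10.6 to 18.5). Hoxa10 was 16.2-fold higher by reads (6.66 to 51.3), Hoxa5 4.36-fold (2.77 to 7.11) and Hoxa4 21.5-fold (3.46 to 891), and Hoxa2, without a read in HECs, at least 12.7-fold. These 4 genes stayed under 4-fold on the log2(TPM + 1) scale, which understates the differences of low genes. Hoxc10, the other gene compared, differed by a ratio of 2.17 (0.934 to 5.44), no difference detectable at this depth. HoxB and HoxD had no gene at 1 TPM in either library. Megakaryocyte markers were lower in Runx1+ IAHCs for 5 of 5 genes (median -6.33), and their part was not tested.

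Between the populations without the reporter, Hox levels of Runx1- IAHCs and ECs lay closer together, with a few central genes and Hoxa11 apart. In Runx1- IAHCs 4 of the 28 Hox genes compared were lower by 4-fold or more, and 1 was higher. Over all 11745 genes 6.63% were lower and 13.9% higher. The median was -0.62, against 0.37 over all genes. Without a minimum level it was -0.14, against -0.01, and under a scaling by median ratios -1.06, against -0.11. Lower were Hoxa5, Hoxc4, Hoxc5 and Hoxc8, all central genes, and higher was the posterior gene Hoxa11. Hoxa5 was at least 203-fold lower, Hoxc8 134-fold lower (23.6 to 5345) and Hoxa11 15.2-fold higher (7.51 to 36.0). Runx1- IAHCs were the rarest sorted population, and RNA lost before sequencing is not in these bounds. The other posterior genes were closer: Hoxa9 was 1.33-fold higher (1.20 to 1.47), Hoxa10 1.50-fold higher (1.25 to 1.80) and Hoxb9 2.36-fold lower (1.97 to 2.84). Under a scaling by median ratios the Hoxa9 difference on the log2(TPM + 1) scale turned from 0.38 to -0.10, that of Hoxa10 was 0.07 and that of Hoxb5, given next, turned from 0.03 to -0.40. The medians were -0.08 for 4 anterior, -1.20 for 14 central and 0.35 for 10 posterior genes. Hoxb5 differed by a ratio of 1.03 (0.806 to 1.31) and Hoxa7 by 1.07 (0.742 to 1.53), so that for these 2 genes no difference was detectable at this depth. Hoxa2 was 1.62-fold lower (1.22 to 2.16), Hoxa4 1.68-fold lower (1.24 to 2.30), Hoxb7 1.71-fold lower (1.45 to 2.02) and Hoxd8 3.10-fold lower (2.64 to 3.66). In Runx1- IAHCs 3 of the 24 genes at 1 TPM or more in ECs had no read, against 6.94% of all such genes. Germ cell markers were higher by 4-fold or more in Runx1- IAHCs for 7 of 8 genes (median 4.01). Mesenchyme and mural markers summed to 9.53 TPM in Runx1- IAHCs, with 3 of 13 genes at 1 TPM or more, against 47.9 TPM in ECs, with 11 of 13 genes. Sclerotome markers in Runx1- IAHCs summed to 2.94 TPM, against 8.96 TPM in ECs, mesonephros and gonad markers to 0.407 against 7.04 TPM, skeletal muscle markers to 0.215 against 5.06 TPM, and sympathetic and neural markers to 27.3 against 9.90 TPM. The part of these cells in the Hox differences was not tested.

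Genes known to act on Hox transcription or beside Hox proteins were read in the same libraries. CDX factors and other axial activators switch on Hox genes in the tail bud, retinoic acid acts on the anterior genes through its receptors, the MLL complex (Kmt2a, Men1, Ash2l and others) maintains Hox transcription, and PBX and MEIS proteins of the TALE family bind DNA together with Hox proteins. Axial activators summed to 2.55 TPM in Runx1+ IAHCs, 6.55 TPM in Runx1- IAHCs, then 1.04 TPM in HECs and 13.7 TPM in ECs. The brachyury gene T, active in the tail bud, had no read in either IAHC library, and 0.248 TPM in HECs against 10 TPM in ECs, 48.3-fold lower (20.4 to 151). Cdx2, chosen here after its values were seen, had 112 reads (5.39 TPM) in Runx1- IAHCs against 1 read in ECs, 102-fold higher (17.9 to 4056), and no read in the Runx1+ IAHC and HEC libraries. Genes of the retinoic acid pathway summed to 23.8, 104, 35.2 and 123 TPM in the order Runx1+ IAHC, Runx1- IAHC, HEC and EC. Of 8 compared between Runx1+ and Runx1- IAHCs, 3 were lower and 1 higher, with 2.94 TPM of Crabp1, which encodes a retinoic acid binding protein, in Runx1+ against 67.2 TPM in Runx1- cells, 23.8-fold lower (15.7 to 37.9). Of 9 compared between HECs and ECs, 3 were lower and 0 higher, with 0.698 TPM of Cyp26b1, which encodes a retinoic acid degrading enzyme, in HECs against 27.8 TPM in ECs, 40.8-fold lower (29.6 to 58.0).

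The MLL list summed to 660, 578, 528 and 462 TPM in the order Runx1+ IAHC, Runx1- IAHC, HEC and EC, of which Dpy30 alone made up 454, 324, 373 and 259 TPM. Of its 15 genes compared, 0 were 4-fold apart between HECs and ECs (median -0.12). Between Runx1- IAHCs and ECs the median was -0.57, and 1 gene was higher and 1 lower. Ash2l had 82.6 TPM in Runx1- cells against 9.92 TPM in ECs, 8.34-fold higher (7.73 to 9.01). Kmt2a, which encodes MLL itself, had 1.18 TPM in Runx1- cells against 8.29 TPM in ECs, 7.04-fold lower (6.01 to 8.27). TALE genes summed to 53.9, 57.7, 103 and 71.8 TPM in the same order, so the lowest Hox sum and the highest TALE sum stood in the HEC library. Meis2 had 0.906 TPM in HECs against 10.3 TPM in ECs, 11.5-fold lower (9.47 to 14.1). Between the IAHCs, Pbx2 was 5.71-fold higher in Runx1+ cells (4.76 to 6.88), with 23.4 and 4.12 TPM, and Meis3 483-fold lower (86.3 to 19125), with 0.0619 TPM from 1 read in Runx1+ against 15.0 TPM in Runx1- cells.

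**Figure D5:**
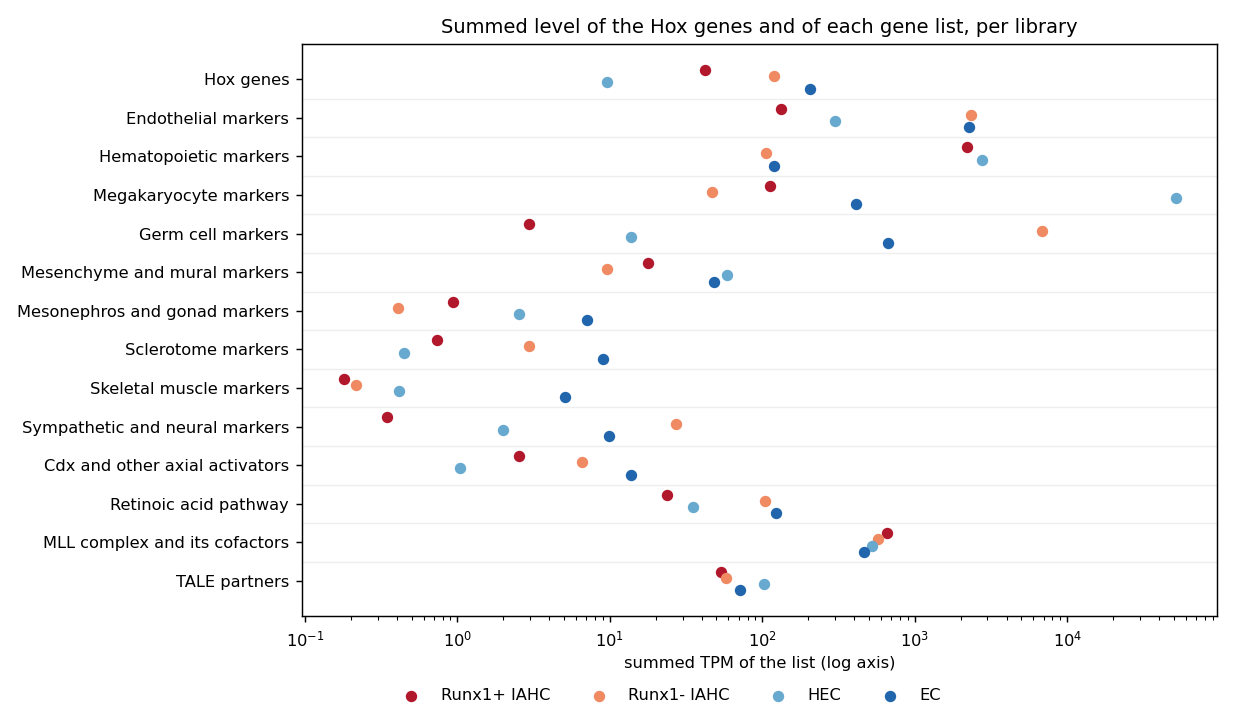
Summed TPM (log axis) of the Hox genes and of each list of markers or regulators, 1 point per library. The Hox sums run over 9.59 to 205 TPM and the MLL sums over 462 to 660 TPM, while the megakaryocyte sum is highest in HECs (51599 TPM) and the germ cell sum in Runx1- IAHCs (6784 TPM).

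Counting bore unequally on the members. Of the exonic length of Hoxd3, Hoxb3 and Hoxa11, 62.8%, 52.9% and 35.0% lies in other annotated genes, and union counting dropped reads that fall on more than 1 gene. Hoxa5, Hoxb7, Hoxb9, Hoxc8 and Hoxd8 have no such overlap. Windows of 51 bases, the read length, were shared with another Hox gene for at most 6.35% of the windows of a gene, in Hoxc10, so that reads were rarely shared between paralogs.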

How the data were processed

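RNA was measured in 4 sorted populations of E11 AGM cells, with 1 library each. The authors made cDNA by template switching from part of each lysate, and short single reads were counted per gene in union mode against a GENCODE annotation. Per the labels reads were aligned to GRCm38 (mm10) with HISAT2 2.0.4. The authors deposited TPM values on a linear scale, with no replicates and no strand, so reads on a part shared by genes of opposite strands were dropped by union counting. A further 18 columns of the deposited workbook belong to no sample used here and were not read.

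Exonic lengths and coordinates were those of GENCODE M21, also on GRCm38. TPM times length gave whole reads, within 0.01 reads, for 49371 of 51205 genes (96.4%) in all 4 libraries, and these reads, less the added read, gave 12420598 to 15917924 reads per library. Reads carried no molecular identifiers and can be PCR copies, hence intervals and floors hold counting error alone. Differences are of log2(TPM + 1), a scale that understates the change of low genes. Genes under 1 TPM in both libraries were not compared, and 4-fold was a rule of size, not a test.

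Named are the Hox genes at 5 TPM or more in a library, neighbouring paralogs that contrast with them, and of the lists of markers and regulators up to 4 genes per list and comparison that passed 4-fold and reached 10 TPM. Hoxc10, Hoxd13, Acta2, Cdx2, Dpy30, Kmt2a and the genes named for overlapping exons or motifs were chosen after their values were seen. The Hox genes and the lists were chosen with earlier results of these data known. A few genes enter the sums, counts and medians but are not reported singly here. The calculations (Python 3.11.15, numpy 2.4.6, pandas 2.3.3 and scipy 1.17.1) were tested on simulated libraries. Alternatives were other minimum levels, pseudocounts, scalings and rules of size, leaving off the added read, and thinning to equal depth.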

Additional observations from a re-analysis of the deposited data

Results flagged for a closer look

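Hoxa5 went in opposite directions in the 2 comparisons of Runx1 reporter-positive with reporter-negative cells. Its difference of log2(TPM + 1) was -3.98 for HEC over EC and 2.59 for Runx1+ IAHC over Runx1- IAHC, each past 4-fold. The difference between the 2 contrasts was not tested, since each contrast rests on 2 single libraries. Hoxa5 had 102 reads in Runx1+ IAHCs and none in Runx1- IAHCs, against 24 reads in HECs and 553 in ECs. Of the 38 Hox genes it was the only one past 4-fold in opposite directions in these 2 contrasts. Runx1- IAHCs were the rarest sorted population, and loss of Hoxa5 RNA before sequencing was not tested.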

How the results depend on the processing

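No named Hox difference past 4-fold changed its sign under any alternative run for it. Of the smaller ones, for Runx1- IAHC over EC Hoxa9 (0.38) was -0.10 and Hoxb5 (0.03) -0.40 with median-ratio scaling, and Hoxb5 was -0.16 with TPM rescaled without mitochondrial, ribosomal protein and hemoglobin genes. No median of the Hox genes changed its sign, with 0.00 for Runx1+ IAHC over HEC without a minimum level the nearest to a change. Counts of 4-fold genes are few and depend on the rule, since most Hox genes are low. For HEC over EC, where 15 were lower, 5 were lower at a minimum of 10 TPM, 23 with a pseudocount of 0.1, 4 with a pseudocount of 5 and 23 at 2-fold, and the median of -2.24 was -3.98 at 10 TPM, -1.31 without a minimum, -4.09 with a pseudocount of 0.1 and -0.89 with one of 5. For Runx1+ over Runx1- IAHC, where 7 were lower and 1 higher, a minimum of 10 TPM gave 2 lower and 0 higher, a pseudocount of 0.1 gave 14 and 2, a pseudocount of 5 gave 0 and 0, and 2-fold gave 16 and 2. There 2 were higher with median-ratio scaling and with TPM rescaled without mitochondrial, ribosomal protein and hemoglobin genes, and 13 were lower where the whole interval of the read ratio had to pass 4-fold. The median of -1.76 was -0.36 without a minimum, -3.39 with a pseudocount of 0.1 and -0.62 with one of 5. For Runx1+ IAHC over HEC, where 2 were higher, 5 were with a pseudocount of 0.1, 0 with one of 5, 6 at 2-fold and 4 by the whole interval, and the median of 1.53 was 2.84 at 10 TPM, 0.00 without a minimum, 3.18 with a pseudocount of 0.1 and 0.52 with one of 5. For Runx1- IAHC over EC, where 4 were lower and 1 higher, a minimum of 10 TPM and a pseudocount of 5 each gave 1 lower and 0 higher, and 9 were lower with a pseudocount of 0.1, 11 at 2-fold and 7 by the whole interval. The median there (-0.62) was -0.14 without a minimum and -1.06 with median-ratio scaling, against -0.01 and -0.11 over all genes.

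Median-ratio scaling shifted log2 ratios of TPM by -0.20 for HEC over EC and 0.11 for Runx1+ over Runx1- IAHC. The shift was -0.20 for Runx1+ IAHC over HEC and -0.51 for Runx1- IAHC over EC. Differences of log2(TPM + 1) moved by amounts that depend on the level. For Runx1+ over Runx1- IAHC, Hoxa5 went from 2.59 to 2.50 and Hoxb7 from -3.50 to -3.32. At 5 TPM 3 Hox genes were present in Runx1+ IAHCs, 9 in Runx1- IAHCs, 0 in HECs and 11 in ECs. With more than 3 reads as the rule there were 13 in Runx1+ IAHCs and 14 in HECs, where 7 reached 0.5 TPM and 2 reached 1 TPM after thinning to equal depth. Without its highest gene the Hox sum was 29.1 TPM in Runx1+ IAHCs, 101 in Runx1- IAHCs, 8.32 in HECs and 170 in ECs. Rescaled without the gene classes named above it was 55.4, 145, 12.1 and 289 TPM, and without the added read it was 7.99 TPM in HECs. The order of the 4 sums was the same in these alternatives. No paired analysis was possible because each population has 1 library, and no library could be left out. Depth limits the low members: in HECs the 38 genes shared 230 reads. Loss of RNA before sequencing is in none of the intervals.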

Other observations

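Genes that mark other regions of the body summed to less than the 38 Hox genes in each library, but their lists hold fewer genes. In Runx1+ IAHCs the 8 HoxD genes alone summed to only 0.837 TPM. Of 10 factors of head and heart regions, 0 reached 1 TPM in Runx1+ IAHCs, Runx1- IAHCs or HECs and 3 did in ECs, and their sums were 0.586, 0.575, 0.576 and 6.06 TPM in that order. Gata4, which acts in heart and gonad development, was the highest of them in ECs, at 2.25 TPM. Gsx1, Gsx2, Pdx1, Evx1 and Evx2, relatives of the Hox genes, summed to 0.217, 0.300, 0.266 and 1.36 TPM in the same order, and 0 of them reached 1 TPM in any library.

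Of the noncoding genes within the clusters, some were chosen after their values were seen. The processed pseudogene Gm11539 in HoxB had the highest values, at 407, 285, 362 and 226 TPM in the order Runx1+ IAHC, Runx1- IAHC, HEC and EC. Whether its reads came from another gene of like sequence was not tested. The others named here were highest in ECs or Runx1- IAHCs. Hotairm1, in the HoxA cluster, was at 1.05 TPM in Runx1+ IAHCs, 1.58 TPM in Runx1- IAHCs and 7.06 TPM in ECs and had no read in HECs. Hoxaas3 was at 0.306, 1.83 and 7.80 TPM in the same order, also without a read in HECs. Hoxa11os had 0 reads in Runx1+ IAHCs, 154 in Runx1- IAHCs, 0 in HECs and 31 in ECs, and Hoxa11, which it overlaps, had 0, 134, 2 and 8 reads. Hoxd3os1 was at 0.103, 3.00, 0.133 and 4.54 TPM in that order. The protein-coding neighbours outside the HoxA cluster had another order, with Skap2 at 15.8, 20.9, 17.6 and 9.21 TPM and Hibadh at 9.58, 28.1, 10.5 and 8.50 TPM in Runx1+ IAHCs, Runx1- IAHCs, HECs and ECs.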
